A study of Mus musculus with 6 samples.

Results

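The Ly6 genes encode small proteins held on the outer face of the cell by a lipid anchor, and 5 of them are described here in mouse liver with and without a hepatocyte-specific deletion of Mettl3. The members Ly6d, Ly6e, Ly6a, Ly6c1 and Ly6c2 were taken by gene name from a table of 54086 features, and all 5 names matched 1 row each. They were selected on their FPKM in these same 6 libraries, with the difference between the genotypes already known, so that difference is given as a description. Where the outcome of the fit across all features is named for a member, it supports nothing, since the same contrast chose the member. One group of libraries came from HKO mice, in which hepatocytes have lost Mettl3, and was set against libraries from Mettl3 flox/flox mice, which carry the same floxed alleles. Both groups were 8 weeks old and fed chow, and each group had 3 poly(A)-selected whole-liver libraries. The labels do not state that the libraries of a group came from separate mice, so every p-value below measures the spread between libraries. The sources used here do not give the Cre driver line, the deleted exons or the sex of the mice.

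Ly6 proteins belong to the Ly6/uPAR family, whose shared domain is a compact fold braced by disulfide bonds between cysteines. A glycosylphosphatidylinositol (GPI) anchor, added in the endoplasmic reticulum, replaces a transmembrane segment in most of them. In mouse blood and marrow they are best known as antigens that mark cell types: Ly6a is the stem cell antigen Sca-1, Ly6c2 marks inflammatory monocytes, Ly6c1 is found on endothelium and lymphocyte subsets, and Ly6d marks progenitors of the B lineage and squamous epithelium. Ly6e is found in many tissues, and Ly6e and Ly6a are both known to be induced by interferon. Several of these genes lie side by side on chromosome 15.

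The 6 libraries were similar in depth, with 16637541 to 17993545 reads rebuilt from the deposited values in HKO-labelled libraries and 16529358 to 18556076 in flox/flox libraries. The deposited unit is FPKM, the fragments counted on a gene divided by its length and by a denominator set for each library. That denominator did not follow the read totals: flox/flox replicate 1 had the most reads and the smallest denominator. It was 1.83e+07 to 2.23e+07 in HKO-labelled and 1.48e+07 to 1.54e+07 in flox/flox libraries, which lowers HKO-labelled FPKM relative to flox/flox FPKM beside scaling by read totals. The targeted gene Mettl3 had 2.45, 2.14 and 2.06 FPKM in HKO-labelled libraries, against 1.88, 2.17 and 1.98 FPKM in flox/flox libraries. These groups overlapped (log2 difference 0.09 ± 0.11 SE, limma adjusted p = 0.582), so the level of the whole gene does not check the genotype labels, and groups are named below as labelled. Liver identity was clear in both groups, in that 14 hepatocyte markers summed to 31486 to 52024 FPKM in HKO-labelled libraries and 59849 to 97975 FPKM in flox/flox libraries.

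The first 150 coding bases of the 5 genes show where cysteine codons lie and how the members resemble each other. They are printed 5′ to 3′ from GENCODE M21 transcripts (GRCm38), with in-frame TGT and TGC cysteine codons in capitals.
Ly6d: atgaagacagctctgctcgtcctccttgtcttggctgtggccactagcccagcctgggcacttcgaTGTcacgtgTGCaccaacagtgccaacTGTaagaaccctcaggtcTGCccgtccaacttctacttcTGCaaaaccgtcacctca
Ly6e: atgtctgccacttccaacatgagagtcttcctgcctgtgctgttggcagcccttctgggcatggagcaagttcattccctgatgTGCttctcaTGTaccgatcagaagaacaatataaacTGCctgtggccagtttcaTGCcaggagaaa
Ly6a: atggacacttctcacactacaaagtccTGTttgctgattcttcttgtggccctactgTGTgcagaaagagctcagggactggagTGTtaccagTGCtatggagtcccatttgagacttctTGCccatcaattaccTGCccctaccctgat
Ly6c1: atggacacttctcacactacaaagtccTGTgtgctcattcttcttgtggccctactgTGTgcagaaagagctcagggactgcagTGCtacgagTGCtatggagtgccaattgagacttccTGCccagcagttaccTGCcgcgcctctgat
Ly6c2: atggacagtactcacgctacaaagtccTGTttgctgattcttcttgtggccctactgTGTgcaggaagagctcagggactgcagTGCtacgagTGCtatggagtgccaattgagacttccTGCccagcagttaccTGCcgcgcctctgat
These stretches hold 5 cysteine codons in Ly6d, 4 in Ly6e and 6 in each of Ly6a, Ly6c1 and Ly6c2. Over the whole coding sequence of 384 to 411 bases the members hold 10 to 12 such codons. These counts cover every cysteine codon, whether or not it lies in the folded domain. Ly6c1 and Ly6c2 were 97.7% identical in coding sequence, Ly6a was 82.0% identical to Ly6c1 and 81.7% identical to Ly6c2, and the remaining 7 pairs were 49.4% to 52.6% identical. Ly6d and Ly6e thus stand apart from the others in sequence, which bears on how far their reads can be told apart: no window of 50 bases of the Ly6d or Ly6e transcript occurred in a transcript of another gene.

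All 5 members were higher in the HKO-labelled libraries, and for each of them every HKO-labelled value lay above every flox/flox value. Of the 25877 features with reads, 14.8% had all HKO-labelled values above all flox/flox values. Summed over the members, FPKM came to 175 ± 42.5 in HKO-labelled and 66.1 ± 0.552 in flox/flox libraries (SD, n = 3 each), 2.65 times higher. The ratio of mean FPKM was 42.7 for Ly6d, 7.93 for Ly6c1, 5.73 for Ly6c2, 5.06 for Ly6a and 2.32 for Ly6e, which supplied most of the summed level. In the fit across all 11086 features that averaged 1 FPKM or more, 3 members were tested and 2 of them, Ly6d and Ly6e, passed as higher, where 5.95% of all tested features did. Because this contrast chose the members, nothing is read from either count. In whole liver, more cells of a type and more RNA per cell cannot be told apart. The median log2 difference of the 5 members, tested or not, was 1.19, against -0.06 for all tested features. Nothing is read from this median either, since the same contrast chose the members.

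**Figure D1:**
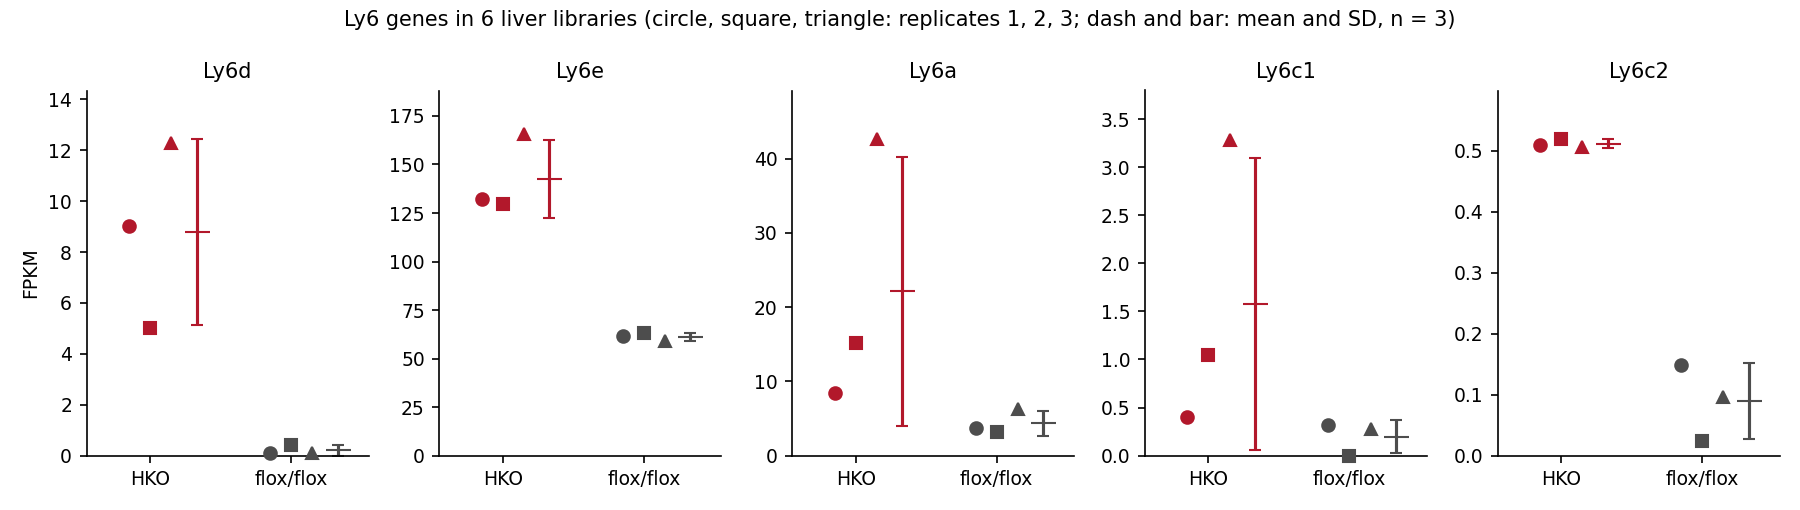
FPKM of each Ly6 member in each library, with one panel per gene and its own linear axis from 0; points are libraries, and horizontal bars with whiskers are the mean and SD of 3 libraries. In every panel the 3 HKO-labelled points lie above the 3 flox/flox points, and the HKO-labelled points spread widely for Ly6a and Ly6c1 and hardly at all for Ly6c2.

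Ly6d had the largest difference. This gene (ENSMUSG00000034634, chr15:74762056-74763620, minus strand, GRCm38) has a single annotated transcript of 744 bases in 3 exons. Its level was 9.03, 5.01 and 12.3 FPKM in HKO-labelled libraries, against 0.0910, 0.438 and 0.0883 FPKM in flox/flox libraries. The gene was close to silent in all 3 flox/flox libraries, and the lowest HKO-labelled library was still 11.4 times the highest flox/flox one. In rebuilt reads this was 130, 68 and 204 in HKO-labelled libraries, against 1, 5 and 1 in flox/flox libraries. The ratio of the pooled reads, scaled by the deposited denominators, was 43.5 (exact 95% interval 20.9 to 109, covering counting error only). On the log2(FPKM + 1) scale the difference was 2.96 ± 0.29 (SE), a scale that understates it because the flox/flox level is far below the added 1. Ly6d passed the filter on low values only through its HKO-labelled libraries, since its flox/flox mean was 0.206 ± 0.201 FPKM. Leaving out each library in turn gave log2 differences of 2.70 to 3.27.

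Markers of the B lineage and of plasmacytoid dendritic cells, the blood cells for which Ly6d is best known, were all low. All 14 were in the table and none reached a mean of 1 FPKM. Their summed level was 2.85 to 4.82 FPKM in HKO-labelled libraries and 0.982 to 3.27 FPKM in flox/flox libraries, so the groups overlapped. Igll1, a surrogate light chain of B progenitors, was at 0 in all 6. In all 3 HKO-labelled libraries the Ly6d level alone exceeded the sum of these 14 genes, most narrowly in replicate 2, at 5.01 FPKM beside a sum of 4.82 FPKM. The level of 1 gene beside a sum of others does not measure cell content. The part of these cells in the Ly6d level was not tested.

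Ly6e was the member with the highest level in every library. This gene (ENSMUSG00000022587, chr15:74955051-74959905, plus strand) is known in mouse to encode a receptor for the placental fusion protein syncytin-A, and the protein limits infection by coronaviruses. Its level was 132, 129 and 166 FPKM in HKO-labelled libraries, against 61.6, 63.2 and 59.1 FPKM in flox/flox libraries. The flox/flox libraries lay within 1.07 times of each other, and the lowest HKO-labelled library was 2.05 times the highest of them. Means were 142 ± 20.2 FPKM in HKO-labelled and 61.3 ± 2.07 FPKM in flox/flox libraries (SD, n = 3 each). The log2 difference was 1.19 ± 0.14 (SE). With 9670, 8943 and 13987 reads in HKO-labelled libraries and 3441, 3670 and 3402 in flox/flox libraries, counting error was small beside the spread between libraries. Leaving out each library in turn gave log2 differences of 1.08 to 1.26. The length used for Ly6e, 3784 bases, covers 16 transcripts, of which 3 are retained-intron forms. Bases annotated only in these non-coding forms make up 33.7% of that length. If all its reads lay on coding transcripts, its mean would be 215 FPKM in HKO-labelled and 92.4 FPKM in flox/flox libraries, with the same ratio.

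Ly6a, which encodes Sca-1, was the most uneven of the abundant members. This gene (ENSMUSG00000075602, chr15:74994877-74998031, minus strand) had 8.45, 15.2 and 42.7 FPKM in HKO-labelled libraries, against 3.71, 3.14 and 6.27 FPKM in flox/flox libraries. The groups did not overlap, but HKO replicate 1 was only 1.35 times the highest flox/flox library, and HKO replicate 3 was 5.05 times HKO replicate 1. Relative to the flox/flox mean, the HKO-labelled libraries stood at 1.93, 3.47 and 9.77 times. Means were 22.1 ± 18.1 FPKM in HKO-labelled and 4.37 ± 1.67 FPKM in flox/flox libraries (SD, n = 3 each), and the log2 difference was 1.85 ± 0.54 (SE). Ly6a did not pass the threshold of the fit across all features. Without HKO replicate 3 its log2 difference was 1.25. Over the 50-base windows of its transcript, 10.04% also occur in transcripts of Ly6c1, Ly6c2, Ly6i or I830127L07Rik, so a small part of its reads could be shared.

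**Figure D2:**
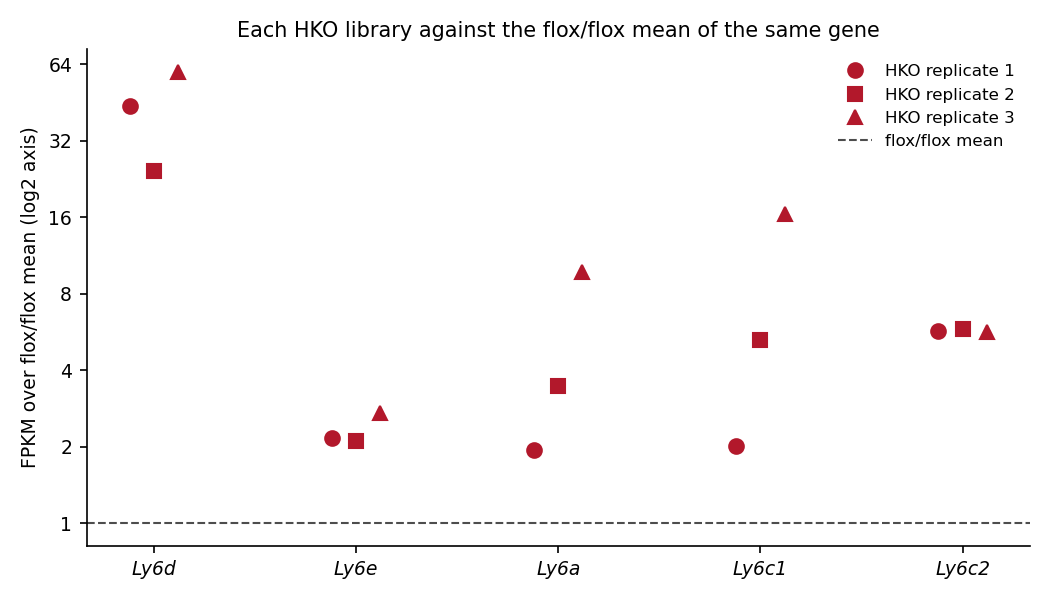
Level of each Ly6 member in each HKO-labelled library relative to the mean of the 3 flox/flox libraries, on a logarithmic axis; the dashed line marks the flox/flox mean, a ratio of 1. Ly6d stands between 24.3 and 59.7 times, Ly6e between 2.11 and 2.70 times, and Ly6a and Ly6c1 are highest in replicate 3, at 9.77 and 16.5 times.

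Ly6c1 and Ly6c2 were both scarce. Ly6c1 (ENSMUSG00000079018, chr15:75044018-75048830, minus strand) had 0.401, 1.05 and 3.29 FPKM in HKO-labelled libraries, against 0.323, 0 and 0.274 FPKM in flox/flox libraries. This is 13, 32 and 123 reads in HKO-labelled libraries and 8, 0 and 7 reads in flox/flox libraries. A count of 0 in flox/flox replicate 2 allows up to 3 reads, or 0.117 FPKM, in that library. HKO replicate 3 held most of the Ly6c1 reads, and HKO replicate 1 was only 1.24 times the highest flox/flox library. Means were 1.58 ± 1.52 FPKM in HKO-labelled and 0.199 ± 0.174 FPKM in flox/flox libraries (SD, n = 3 each). The pooled read ratio was 8.48 (exact 95% interval 4.99 to 15.5, counting error only). Its log2 difference was 0.95, and 0.51 without HKO replicate 3.

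Ly6c2 (ENSMUSG00000022584, chr15:75108158-75111970, minus strand) had 0.509, 0.520 and 0.507 FPKM in HKO-labelled libraries, against 0.148, 0.0238 and 0.0959 FPKM in flox/flox libraries. The HKO-labelled values were nearly equal, the highest being 1.03 times the lowest, and the lowest was 3.42 times the highest flox/flox value. Reads numbered 27, 26 and 31 in HKO-labelled libraries, against 6, 1 and 4 in flox/flox libraries. The pooled ratio was 5.78 (exact 95% interval 3.07 to 12.02, counting error only). Neither Ly6c1 nor Ly6c2 reached a mean of 1 FPKM over the 6 libraries, so neither was tested. With the filter lowered to a mean of 0.1 FPKM, Ly6c2 passed as higher along with Ly6d and Ly6e, where 4.24% of 17606 features did, and Ly6c1 and Ly6a did not pass. Ly6c2 cleared that filter only through its HKO-labelled libraries, at 0.512 ± 0.00681 FPKM against 0.0893 ± 0.0625 FPKM in flox/flox libraries, and nothing is read from this count.

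How far the pair can be separated depends on their sequence. Their 396 coding bases differ at 9 places, of which 6 are in the first 150 bases, 1 in bases 151 to 300 and 2 after base 300. Coding bases 151 to 300 are printed here because reads from them can hardly be assigned to 1 gene; the capital marks the base that differs.
Ly6c1: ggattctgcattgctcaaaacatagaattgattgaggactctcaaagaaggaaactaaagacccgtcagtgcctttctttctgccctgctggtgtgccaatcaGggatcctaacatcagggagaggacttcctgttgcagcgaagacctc
Ly6c2: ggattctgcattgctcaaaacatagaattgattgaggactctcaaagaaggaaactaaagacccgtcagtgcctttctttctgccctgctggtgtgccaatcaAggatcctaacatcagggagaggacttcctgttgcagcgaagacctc
Over the full transcripts, 36.7% of 50-base windows of Ly6c1 and 33.0% of those of Ly6c2 also occur in another gene's transcripts. For windows of 100 bases these shares are 15.3% in Ly6c1 and 15.8% in Ly6c2. The sources used here do not say how reads that match both genes were counted, so the split between the pair is uncertain. The length of Ly6c2, 2740 bases, also holds 68.3% of bases that belong only to a retained-intron transcript. If all its reads lay on coding transcripts, its mean would be 1.62 FPKM in HKO-labelled and 0.282 FPKM in flox/flox libraries, close to the level of Ly6c1.

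The start regions of this pair are less alike than their coding sequences, and are shown for that difference. Each window runs from 250 bases before to 50 bases after an annotated start (RefSeq, GRCm38.p6, minus strand), at chr15:75048788-75049087 for Ly6c1 and chr15:75111922-75112221 for Ly6c2. Capitals mark runs of at least 12 bases that occur in both.
Ly6c1: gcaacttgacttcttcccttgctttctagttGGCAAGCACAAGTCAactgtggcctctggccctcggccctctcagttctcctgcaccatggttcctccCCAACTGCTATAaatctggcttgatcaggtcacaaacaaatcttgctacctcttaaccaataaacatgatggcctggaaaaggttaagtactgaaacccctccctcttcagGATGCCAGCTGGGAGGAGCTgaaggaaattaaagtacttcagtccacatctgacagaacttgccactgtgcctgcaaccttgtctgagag
Ly6c2: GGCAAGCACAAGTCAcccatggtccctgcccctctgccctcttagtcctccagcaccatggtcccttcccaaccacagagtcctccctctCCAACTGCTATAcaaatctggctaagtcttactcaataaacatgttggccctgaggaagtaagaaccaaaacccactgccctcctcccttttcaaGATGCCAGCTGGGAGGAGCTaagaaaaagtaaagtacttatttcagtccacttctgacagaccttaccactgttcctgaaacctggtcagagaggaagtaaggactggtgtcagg
These windows were 62.3% identical when aligned, with gaps counted as differences, and 47 bases of each lie in shared runs. Their alignment held 58 mismatches and 68 gap columns, against 9 and 0 over the coding sequence. The table lists another start for each gene, and the other 3 pairings of a Ly6c1 with a Ly6c2 window were 38.2% to 50.5% identical. Overhanging ends count as gaps, so these percentages mix a shift between windows with divergence. The 38.2% pairing had 21 mismatches and 238 gap columns, and the 2 overlapping Ly6c2 windows, with 0 mismatches, scored 79.6%. Promoter windows of Ly6d, Ly6e and Ly6a were not used here.

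Per length of gene, the order of the members in HKO-labelled libraries was Ly6e, Ly6a, Ly6d, Ly6c1 and Ly6c2. Ly6a and Ly6d overlapped, since Ly6d was the higher in replicate 1, and so did Ly6c1 and Ly6c2, whose order turns (1.62 FPKM for Ly6c2 and 1.58 FPKM for Ly6c1) if all reads lay on coding transcripts. In flox/flox libraries the order was Ly6e, Ly6a and then Ly6d, Ly6c1 and Ly6c2, whose values overlapped each other. Ly6e made up 73.8% to 87.8% of the members' summed FPKM in HKO-labelled libraries and 89.8% to 94.6% in flox/flox libraries. Ly6d made up 3.31% to 6.002% in HKO-labelled libraries and 0.134% to 0.656% in flox/flox libraries. The share of Ly6a overlapped between the groups, at 5.62%, 10.04% and 19.0% in HKO-labelled libraries and 5.63%, 4.70% and 9.53% in flox/flox libraries. All 5 members kept a higher value in HKO-labelled libraries under every scaling, pseudocount and left-out library for which a value could be had.

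The members lie within 350 kb of chromosome 15, with gaps of 191, 35.0, 46.0 and 59.3 kb between them from Ly6d to Ly6c2. Within 500 kb of this span lie 52 other features, of which 24 are protein-coding and 20 had no read in any library. Of the 32 with reads, 4 averaged 1 FPKM or more, and none of the 4 passed the test, where 12.8% of all tested features passed in either direction. None of the 18 other features inside the span was abundant enough to be tested. Among them AC139671.1, Gml and Ly6i had every HKO-labelled value above every flox/flox value, as 14.8% of all features with reads did. AC139671.1 had 0.650, 0.575 and 0.846 FPKM in HKO-labelled libraries, against 0.331, 0.410 and 0.0459 FPKM in flox/flox libraries. The rest inside the span overlapped or had no read. Them6, just outside the span, had 2.55, 2.06 and 3.09 FPKM in HKO-labelled libraries, against 1.71, 1.94 and 1.62 FPKM in flox/flox libraries, and its log2 difference of 0.36 ± 0.14 did not pass (limma adjusted p = 0.121). BC025446 had 48.3, 54.5 and 21.7 FPKM in HKO-labelled libraries, against 85.5, 105 and 78.7 FPKM in flox/flox libraries. Its log2 difference of -1.18 ± 0.34 ran the other way from the members and did not pass (limma adjusted p = 0.0645). 9030619P08Rik had 5.64, 5.57 and 13.8 FPKM in HKO-labelled libraries, against 4.56, 6.69 and 4.22 FPKM in flox/flox libraries. Those groups overlapped, and its log2 difference of 0.51 ± 0.34 did not pass (limma adjusted p = 0.331). The fourth tested neighbour, Gpihbp1, is a relative and is described with them. Outside the span, the untested Arc and I830127L07Rik also had every HKO-labelled value above every flox/flox value, the latter all 0. Arc had 0.101, 0.143 and 0.176 FPKM in HKO-labelled libraries, and I830127L07Rik had 0.194, 0.0686 and 0.168 FPKM. The 4 tested neighbours are named because they were tested, and AC139671.1, Gml, Ly6i, Arc and I830127L07Rik because their groups did not overlap. Both choices were made after the values were seen.

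**Figure D3:**
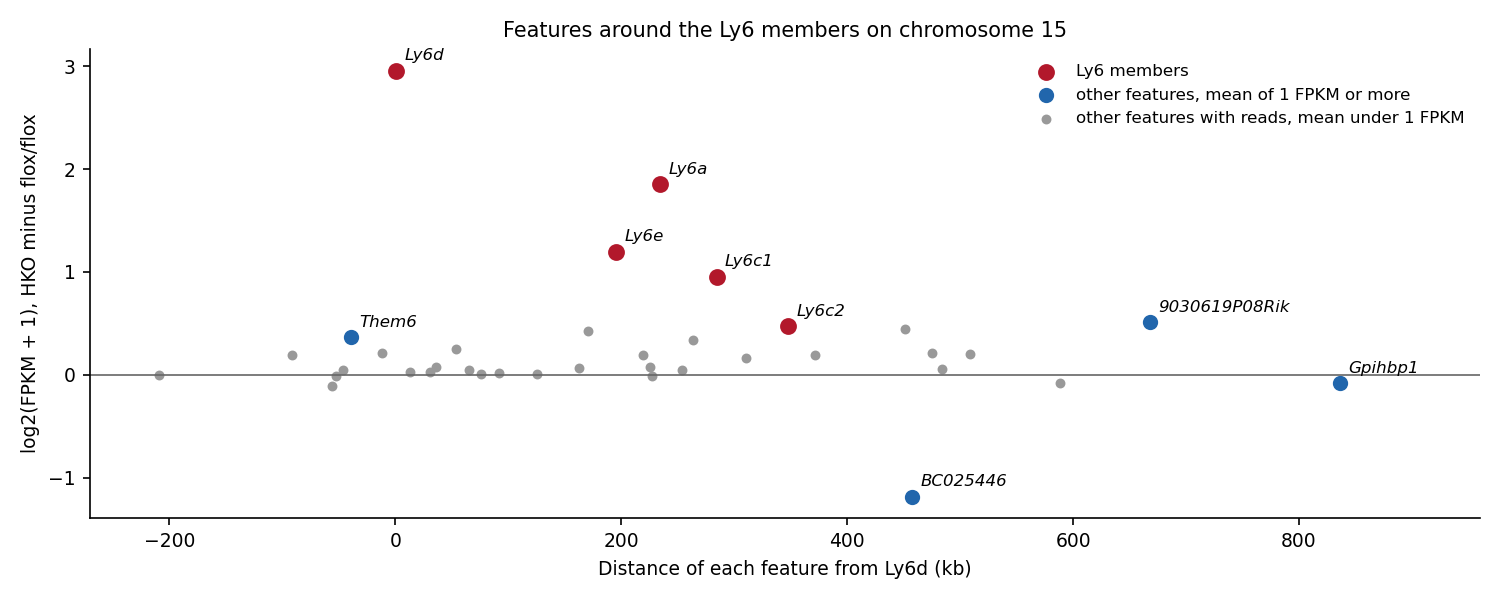
Difference in log2(FPKM + 1), HKO-labelled minus flox/flox, of each feature with reads within 500 kb of the Ly6 members, against its distance from Ly6d in kilobases along chromosome 15. The 5 members lie between 0.47 and 2.96, and the 4 others that averaged 1 FPKM or more lie between -1.18 and 0.51.

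Few other genes of the Ly6/uPAR family were abundant enough to test, and none of those tested was higher. Of 38 relatives listed, 32 were in the table, 13 of these had no read in any library, and 3 reached a mean of 1 FPKM. Of these 3, 1 was lower, where 6.86% of all tested features were lower, and their median log2 difference was -0.49, against -0.06 for all tested features. Cd59b, an inhibitor of the complement membrane attack complex, had 1.03, 0.885 and 0.965 FPKM in HKO-labelled libraries, against 3.33, 2.15 and 2.83 FPKM in flox/flox libraries. The groups did not overlap and Cd59b fell, by 0.93 ± 0.15 on the log2 scale (limma adjusted p = 0.0194), a call lost when any HKO-labelled library or flox/flox replicate 3 was left out. Cd59b cleared the filter only through its flox/flox libraries, at 2.77 ± 0.591 FPKM against 0.961 ± 0.0744 FPKM in HKO-labelled libraries. Nothing is read from the count of 1 in 3. Its paralog Cd59a had 18.4, 21.7 and 22.7 FPKM in HKO-labelled libraries, against 33.5, 26.4 and 29.7 FPKM in flox/flox libraries. Its log2 difference of -0.49 ± 0.14, which is also the median of the 3, did not pass (limma adjusted p = 0.0612), and was -0.01 with a common sum over all features and -0.10 with library totals. Gpihbp1, which carries lipoprotein lipase across capillary endothelium, had 5.79, 7.10 and 5.12 FPKM in HKO-labelled libraries, against 11.7, 3.34 and 6.23 FPKM in flox/flox libraries. Those groups overlapped, and the log2 difference of -0.08 ± 0.37 (limma adjusted p = 0.901) turned positive under 3 scalings and without HKO replicate 3 or flox/flox replicate 1. Ly6g, the neutrophil antigen of the same cluster, was at 0 in all 6 libraries. Among relatives below a mean of 1 FPKM, Plaur, Ly6i and Gml had every HKO-labelled value above every flox/flox value. Of all features with reads, 14.8% did so. Plaur had 1.28, 0.419 and 0.411 FPKM in HKO-labelled libraries, against 0.285, 0.0747 and 0.251 FPKM in flox/flox libraries. The other untested relatives with reads overlapped between the groups.

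No tested gene of the machinery that makes, attaches and releases GPI anchors was higher with the deposited scaling. Of 32 such genes listed, 26 were tested and 1 was lower, where 6.86% of all tested features were lower and 5.95% higher, with a median log2 difference of -0.06, the same as for all tested features. Gpld1, the phospholipase that cleaves GPI anchors and is secreted by liver, had 34.9, 36.7 and 38.2 FPKM in HKO-labelled libraries, against 59.5, 49.99 and 49.3 FPKM in flox/flox libraries. Gpld1 fell by 0.52 ± 0.12 on the log2 scale (limma adjusted p = 0.0409), but this call was lost when any 1 library was left out and under every other scaling, being -0.03 with a common sum over all features. Under 3 scalings tied to library sums or totals, 4 to 9 genes of this list were higher and none lower.

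Interferon-stimulated genes, the group to which Ly6e and Ly6a are known to belong, were described through 41 other genes. Of the 37 tested, 14 were higher and none lower, where 5.95% of all tested features were higher, and 36 of 37 had a positive difference. Their median log2 difference was 0.59. Isg15, a ubiquitin-like modifier, had 25.6, 27.7 and 31.7 FPKM in HKO-labelled libraries, against 6.99, 9.48 and 14.1 FPKM in flox/flox libraries, and rose by 1.44 ± 0.23 on the log2 scale (limma adjusted p = 0.0209). Oasl1, of the oligoadenylate synthetase family, had 10.6, 8.93 and 18.3 FPKM in HKO-labelled libraries, against 2.65, 4.67 and 5.29 FPKM in flox/flox libraries, and rose by 1.36 ± 0.30 (limma adjusted p = 0.0369). Neither gene's groups overlapped. Rtp4 rose by 1.36 ± 0.26 (limma adjusted p = 0.0265), and Ifi27l2a rose by 1.20 ± 0.17 (limma adjusted p = 0.0165). The count of 14 depended on the libraries: it was 0, 1 and 3 without HKO replicates 1, 2 and 3, and 9, 4 and 1 without flox/flox replicates 1, 2 and 3. The median log2 difference of the list was 0.43 to 0.72 over these 6 fits. With other scalings the count was 13 to 26 and with no filter 2, with no lower call.

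**Figure D4:**
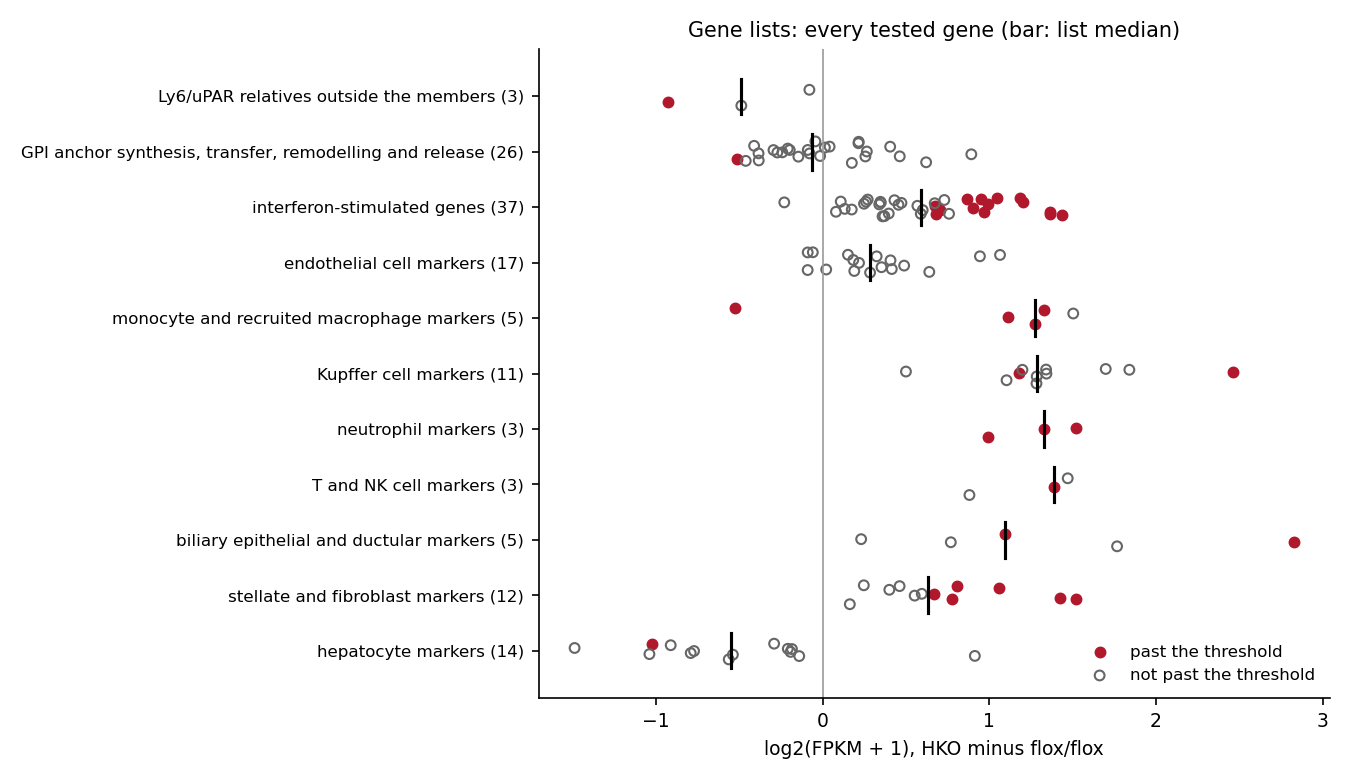
Difference in log2(FPKM + 1), HKO-labelled minus flox/flox, of each tested gene of the Ly6/uPAR relatives, GPI-anchor, interferon and cell-type lists; each point is a gene, filled where it passed the limma test and open where it did not, and a vertical bar marks the median of each list. Interferon-stimulated genes centre on 0.59 and GPI-anchor genes on -0.06.

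Some markers of several non-parenchymal cell types were also higher in the HKO-labelled libraries. The counts of higher genes below stand beside 5.95% of all tested features, and the markers tested had to average 1 FPKM, so most of the scarce ones are not among them. Monocyte and recruited macrophage markers, the cells Ly6c2 is known for, had 5 of 15 tested, 3 higher and 1 lower. Csf1r, Ms4a6c and Plac8 rose by 1.33 ± 0.34, 1.28 ± 0.15 and 1.11 ± 0.11 on the log2 scale, while Fn1, which hepatocytes also make, fell by 0.53 ± 0.13. The summed level of the whole list overlapped, at 233 to 265 FPKM in HKO-labelled libraries and 191 to 255 FPKM in flox/flox libraries. Without Fn1, a sum added after the values were seen, it was 120 to 134 FPKM in HKO-labelled and 23.1 to 81.6 FPKM in flox/flox libraries. Ccr2, the chemokine receptor of inflammatory monocytes, had 1.62, 1.06 and 0.650 FPKM in HKO-labelled libraries, against 0.140, 0.0771 and 0.262 FPKM in flox/flox libraries; it was not tested. Neutrophil markers had 3 of 12 tested and all 3 higher, namely S100a9 and S100a8, the subunits of calprotectin, and the growth factor receptor Csf3r. The 12 summed to 6.52 to 13.2 FPKM in HKO-labelled and 1.39 to 2.10 FPKM in flox/flox libraries. With flox/flox sums that low, the 3 tested genes cannot all have cleared the filter without their HKO-labelled libraries, so nothing is read from this count. HKO replicate 3, the highest library in Ly6d, Ly6e, Ly6a and Ly6c1, was the lowest HKO-labelled library in Ccr2 and in summed neutrophil markers. Among HKO replicates 1, 2 and 3, replicate 1 was the lowest in the monocyte list without Fn1 (120, 134 and 131 FPKM). It was also the lowest in summed Kupffer cell markers (425, 564 and 529 FPKM) and T and NK cell markers (5.68, 21.9 and 11.4 FPKM). Kupffer cell markers, 2 of 11 higher (the scavenger receptor Marco and the folate receptor Folr2), summed to 425 to 564 FPKM in HKO-labelled and 86.7 to 334 FPKM in flox/flox libraries. T and NK cell markers, with the granule protein gene Nkg7 higher among 3 tested, summed to 5.68 to 21.9 FPKM in HKO-labelled and 1.04 to 3.72 FPKM in flox/flox libraries. Without HKO replicate 2 no T and NK gene cleared the filter, so nothing is read from that count either. The part of these cells in the members' levels was not tested.

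Endothelial cells are another known site of Ly6a and Ly6c1. None of 17 endothelial markers tested passed, 14 of the 17 had a positive difference, their median log2 difference was 0.28, and their sums overlapped at 139 to 173 FPKM in HKO-labelled and 71.6 to 166 FPKM in flox/flox libraries. Plvap, the most abundant, had 32.04, 32.4 and 33.4 FPKM in HKO-labelled libraries, against 26.1, 16.1 and 20.7 FPKM in flox/flox libraries, and did not pass (limma adjusted p = 0.0581). Scaling to library sums or totals gave 3 to 6 endothelial genes higher. Summed endothelial markers were 143, 173 and 139 FPKM in HKO replicates 1, 2 and 3, and their part in the levels of Ly6a and Ly6c1 was not tested. Stellate and fibroblast markers had 6 of 12 tested higher, among them the fibrillar collagens Col3a1 and Col1a1, the pericyte gene Rgs5 and the retinol-storing enzyme Lrat, and summed to 73.1 to 95.8 FPKM in HKO-labelled and 41.9 to 50.8 FPKM in flox/flox libraries. Biliary markers had 2 of 5 tested higher, Tff3 and Sox9, and summed to 87.0 to 215 FPKM in HKO-labelled and 31.5 to 61.9 FPKM in flox/flox libraries. In both these lists HKO replicate 3 had the lowest sum of the HKO-labelled libraries, and their part in the members' levels was not tested. Hepatocyte markers had 1 of 14 lower, Apoa2, and a median log2 difference of -0.55. This median was 0.13 after quantile normalization but stayed negative under the other scalings, at -0.48 to -0.05. Leaving out 1 library gave -0.76 to -0.30. Calls in these cell-type lists were lost when single libraries were left out. Leaving out HKO replicate 1 or flox/flox replicate 3 left 0 higher calls in the monocyte, neutrophil, Kupffer, T and NK, biliary and stellate lists, in fits that called only 32 and 30 features of the whole table. Leaving out HKO replicate 2 left 1 in the monocyte list and 0 in the other 5, of which the T and NK list then had no gene to test. Kupffer cell calls numbered 9 without flox/flox replicate 1 and 0 without any other library, and T and NK cell calls 0 without any 1 library. Stellate calls numbered 3 without HKO replicate 3 or flox/flox replicate 2, neutrophil calls 1 without flox/flox replicate 2 and biliary calls 1 without flox/flox replicate 1. Over the 6 such fits the median log2 difference was 0.99 to 1.35 in the monocyte list, 1.09 to 1.46 in the neutrophil list, 0.85 to 1.75 in the Kupffer list, 0.99 to 1.17 in the biliary list and 0.57 to 0.69 in the stellate list. In the T and NK list it was 1.22 to 1.64, with no value without HKO replicate 2.

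**Figure D5:**
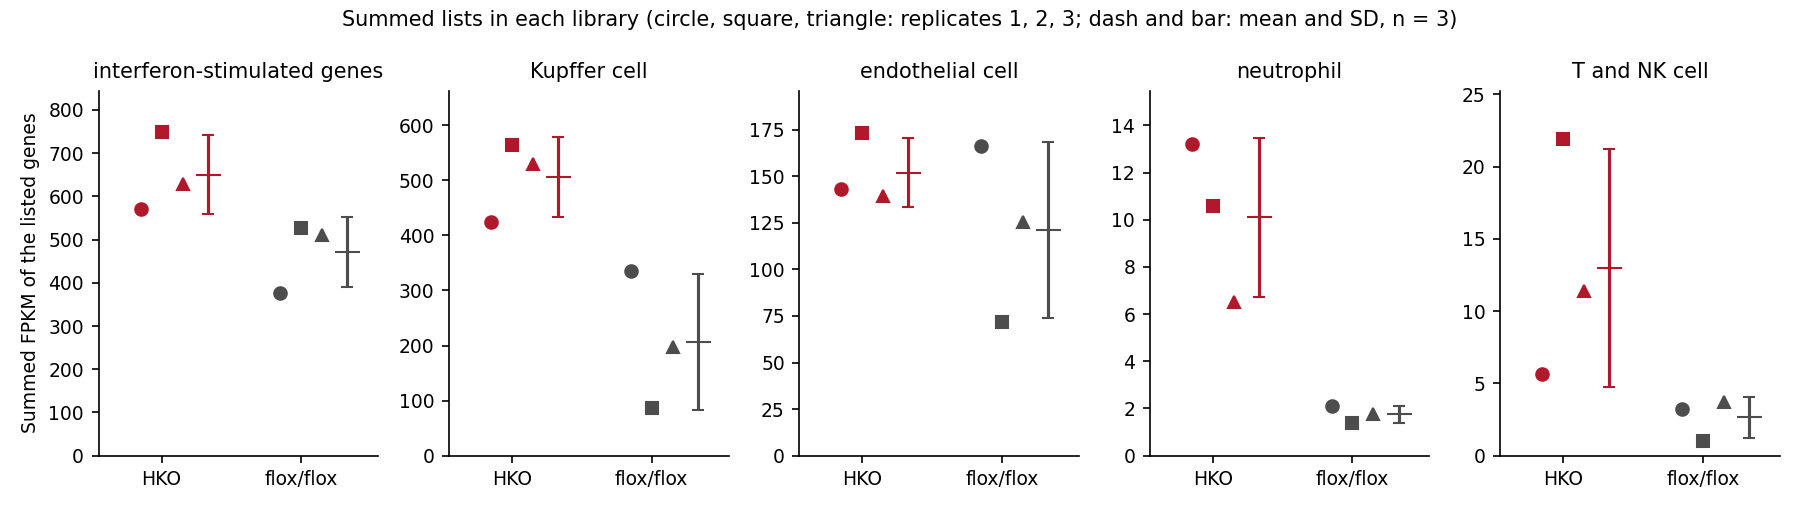
Summed FPKM of the interferon-stimulated genes and of Kupffer, endothelial, neutrophil, and T and NK cell markers in each library, with one panel per list and its own linear axis from 0; symbols are replicates, and dashes with whiskers are the mean and SD of 3 libraries. The endothelial sums overlap between the groups, and in the other 4 panels every HKO-labelled library lies above every flox/flox library.

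Genes whose profile over the 6 libraries came nearest to each member were found among 9562 tested protein-coding genes by the root mean square distance between centred log2(FPKM + 1) profiles. These profiles include the difference between genotypes, and a member with a small spread has a small distance to many genes. Nearest to Ly6d were Ifi27l2b (0.385), Gstm3 (0.411) and Pygb (0.418). Ifi27l2b had 29.1, 23.8 and 39.7 FPKM in HKO-labelled libraries, against 1.05, 4.17 and 1.44 FPKM in flox/flox libraries, so it shared with Ly6d the lowest HKO-labelled value in replicate 2 and the highest flox/flox value in replicate 2. Nearest to Ly6e were Fam53b (0.105), Lgals3bp (0.106) and Ywhah (0.106), and nearest to Ly6a were BC048671 (0.320), Col20a1 (0.336) and Serpina7 (0.395). Serpina7, which encodes thyroxine-binding globulin, had 33.8, 59.7 and 137 FPKM in HKO-labelled libraries, against 12.7, 10.8 and 10.98 FPKM in flox/flox libraries, in the same order over the HKO-labelled replicates as Ly6a. Nearest to Ly6c1 were Spsb2 (0.188), Sult1c2 (0.196) and Cblc (0.218), and nearest to Ly6c2 were Khnyn (0.0369), Cdc42se1 (0.0429) and Nsd2 (0.0481).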

How the data were processed

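Per the labels' protocols, mRNA was purified from total liver RNA on poly-T beads, fragmented and sequenced in pairs. The series text names HISAT2 2.0.5 as the aligner, with GRCm38.p6 as genome, and featureCounts 1.5.0-p3 as the counter. The submitters' processing notes also list DESeq2 1.16.1. The authors deposited FPKM for 54086 features. Multiplied by gene length, 100% of the values in each library came out as whole reads (tolerance 0.01 read) once divided by 1 step size, and these are the rebuilt reads. The deposited denominators were larger in all 3 HKO-labelled libraries than in any flox/flox library, so FPKM sums were 318212 to 360226 in HKO-labelled and 453837 to 542601 in flox/flox libraries.

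FPKM are not counts, so limma 3.58.1 (R 4.3.3) was run on log2(FPKM + 1), HKO minus flox/flox, on the 11086 features that averaged 1 FPKM or more. Variances were moderated along an intensity trend, and a call needed an adjusted p (Benjamini-Hochberg, two-sided) under 0.05. The members and gene lists were chosen with earlier results of these data known. Genes named were the members, up to 4 passing genes per list by size or else its most abundant gene, every tested relative, and the 3 nearest profiles per member. Igll1, Ccr2, Ly6g, Plaur, Ly6i, Gml, AC139671.1, Arc and I830127L07Rik were added after their values were seen. Some list genes are counted but not reported here by name. Alternatives covered pseudocount, filter, scaling, variance model, voom on rebuilt reads, a replicate block and leaving out each library. Exact intervals of pooled read ratios condition on the total reads and cover counting error only. Sequences come from GENCODE M21 and RefSeq. Python 3.11.15, numpy 2.4.6, pandas 2.3.3, scipy 1.17.1 and matplotlib 3.10.9 were used. No sample column was left unused.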

Additional observations from a re-analysis of the deposited data

How the results depend on the processing

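No member's difference changed sign under any alternative that gave a value. The log2 difference of Ly6d was 4.96, 5.65 and 5.35 with a pseudocount of 0.1, of 0.01 and with voom on the rebuilt reads. That of Ly6e was 1.59, 1.69, 1.59 and 1.56 when FPKM were rescaled to 1 sum that leaves out the 20 highest genes, to 1 sum over all features, to library totals and by quantile normalization. Ly6c1 was at 2.31 and 3.52 with pseudocounts of 0.1 and 0.01. Ly6c2 was at 1.75 and 2.66 with those pseudocounts, and at 0.56, 0.59 and 0.57 with the 2 common sums and library totals. Leaving out 1 library gave 2.70 to 3.27 for Ly6d, 1.08 to 1.26 for Ly6e, 1.25 to 2.35 for Ly6a, 0.51 to 1.32 for Ly6c1 and 0.43 to 0.51 for Ly6c2. Ly6c1 and Ly6c2 have no value under quantile normalization or voom. Ly6d and Ly6e each passed as higher in 16 of 18 alternatives, and lost the call without HKO replicate 1 or flox/flox replicate 3. Ly6a passed as higher only under the 2 common sums and library totals. Library totals, and the neighbours under each setting, were added after seeing the data.

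The fit across all features called 1421, of which 660 were higher and 761 lower. It called 510 with no filter, 2648 (2427 higher, 221 lower) under the first common sum, 3427 (3237 and 190) under the second and 2429 (2215 and 214) with library totals. Calls split into 760 higher and 502 lower with median-of-ratios scaling of tested genes, 650 and 386 with quantile normalization, and 747 and 574 with a filter at 0.1 FPKM. The median log2 difference of all tested features was 0.26 under the first common sum and library totals and 0.34 under the second, against -0.06 as deposited. Leaving out 1 library gave 30 (without flox/flox replicate 3) to 1473 calls (without flox/flox replicate 1), and 0 to 1 relatives, 0 to 33 genes of all lists and 0 to 0 neighbours. Of all list genes 35 were called, against 9 with no filter and 65, 77 and 64 with the 2 common sums and library totals; 1 neighbour was called under each of those 3 and none as deposited. Leaving aside the B lineage list, which had no call in any setting, the counts of single lists stayed within 1.5 times of the deposited-scale count in 73 of 180 alternatives. The causes were not tested. Low read counts limit Ly6c1, Ly6c2 and the flox/flox level of Ly6d.

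Replicate numbers did not pair the libraries: deviations of same-numbered libraries correlated at -0.00261, -0.0996 and -0.0673. With a replicate block 199 features were called (108 higher, 91 lower), 0 relatives and 8 list genes, of which 5 were interferon-stimulated.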
